A study of Homo sapiens with 42 samples.

Results

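The Gemin genes encode the subunits that surround the SMN protein in the SMN complex. The 8 genes described here are GEMIN2, GEMIN4, GEMIN5, GEMIN6, GEMIN7, GEMIN8, DDX20 (which encodes Gemin3) and STRAP (which encodes Unrip). They were chosen by symbol, as the rows of both count tables whose Ensembl identifier maps to these names, and they are 8 of 58243 genes counted. The gene copies that encode the SMN protein itself were not analysed here.

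The SMN complex loads a ring of Sm proteins onto small nuclear RNAs in the cytoplasm, an early step in building the small nuclear ribonucleoproteins (snRNPs) of the spliceosome. Gemin5 recognises the small nuclear RNA, Gemin2 holds the Sm proteins before the ring closes, and the DEAD-box helicase Gemin3 works together with Gemin4. Gemin6 and Gemin7 form an Sm-like dimer that Gemin8 links to the rest of the complex, and Unrip binds to that side of it.

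K562, an established human cell line from chronic myeloid leukaemia that carries the BCR-ABL1 kinase, was sequenced in 42 libraries, 27 of poly(A) mRNA from whole cells and 15 of RNA from nuclei with ribosomal RNA removed. Cells were untreated (CTRL) or received 1 μM imatinib (IM), an inhibitor of BCR-ABL1, for 1, 6 or 18 h, 5 μM JTE-607 (JTE), a compound directed at the 3′-end nuclease CPSF73, for 1, 6 or 18 h, or 110 mM KCl, an osmotic stress, for 1 or 3 h. Nuclear RNA was taken from CTRL, IM 1h, IM 18h, JTE 1h and KCl 1h. Each of the 14 groups held 3 biological replicates of this single line, and all treatments were compared with the same CTRL libraries of their fraction.

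Totals lay between 16439848 and 22505595 counts in mRNA libraries, apart from the deeper KCl 1h replicate 2 with 62953314 and replicate 3 with 42474454. Nuclear libraries ranged from 16175394 to 25103205 counts. The K562 markers GATA1, TAL1, KLF1, HBG1 and LMO2 had group means of at least 52.4 CPM, the count of a gene scaled by library depth, in every group. Of the genes that mark other cell types, CD3E, ALB, COL1A1 and CD14 stayed at or below 2.62 CPM, whereas EPCAM ran from 57.0 to 98.9 CPM.

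CPM values below are scaled by the effective library size of each fraction, and mRNA and nuclear tables were normalised separately, so levels set across the fractions are not directly comparable. A gene was called when edgeR's quasi-likelihood test gave a Benjamini-Hochberg adjusted p under 0.05 over all genes tested and the log2 fold change lay beyond 0.6 in either direction. All 8 genes passed the low-count filter in both fractions, among 18095 genes tested in mRNA and 21929 in nuclear RNA. Their counts per library ran from 66 for GEMIN7 to 11796 for STRAP, so GEMIN7 carried the largest counting error.

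On hg38, GEMIN2 lies at chr14:39114223-39136973 on the plus strand, GEMIN4 at chr17:744414-753999 on the minus strand and GEMIN5 at chr5:154887416-154938209 on the minus strand. GEMIN6 lies at chr2:38751534-38785000 on the plus strand, GEMIN7 at chr19:45079195-45091524 on the plus strand and GEMIN8 at chrX:14008279-14029893 on the minus strand. DDX20 occupies chr1:111755245-111768016 and STRAP chr12:15882391-15903478, both on the plus strand. Reads were counted over the exons of each gene. GEMIN7 shares 90 exonic bases with MARK4, 103 with PPP1R37 and 285 with the antisense GEMIN7-AS1, DDX20 shares 417 with INKA2 on the other strand, and GEMIN4 shares 158 with DBIL5P on the other strand. GEMIN7 and GEMIN8 each have 1 intron, of 10077 and 10908 bases, above the 10000 bases that the aligner allowed.

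Per kilobase of exon (RPKM), the genes spanned a wide range in untreated mRNA. STRAP stood highest at 84.0 ± 4.21 RPKM (SD, n = 3), followed by GEMIN5 at 29.2 ± 2.48, DDX20 at 11.3 ± 0.717, GEMIN4 at 8.99 ± 1.16, GEMIN2 at 7.10 ± 1.12, GEMIN7 at 5.29 ± 0.557, GEMIN8 at 3.82 ± 0.175 and GEMIN6 at 3.76 ± 0.379. Neighbours in this order did not overlap between libraries, with the exceptions of GEMIN4 with GEMIN2 and GEMIN8 with GEMIN6. In IM 18h mRNA the first 3 places were the same, and GEMIN6 was last at 1.93 ± 0.270 RPKM, without overlap with GEMIN7 at 3.91 ± 0.468.

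The 250 bases upstream of the RefSeq start (GRCh38.p14) are shown for the genes called lower after imatinib in both fractions whose window holds no counted exon, and for GEMIN8, which was not lower. They are written 5′ to 3′ on the strand of the gene, and capitals mark CCGGAA or CACGTG on either strand. The windows are chr5:154938212-154938461 for GEMIN5, chr17:752265-752514 for GEMIN4, chr12:15882137-15882386 for STRAP and chrX:14029893-14030142 for GEMIN8. The GEMIN4 window lies inside the counted span of that gene, whose 5′ end is at 753999, between counted exons.
GEMIN5: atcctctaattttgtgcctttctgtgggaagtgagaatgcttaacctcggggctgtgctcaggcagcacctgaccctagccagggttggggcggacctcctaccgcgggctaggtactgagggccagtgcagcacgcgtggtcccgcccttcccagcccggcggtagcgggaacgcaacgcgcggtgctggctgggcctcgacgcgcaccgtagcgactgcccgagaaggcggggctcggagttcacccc
GEMIN4: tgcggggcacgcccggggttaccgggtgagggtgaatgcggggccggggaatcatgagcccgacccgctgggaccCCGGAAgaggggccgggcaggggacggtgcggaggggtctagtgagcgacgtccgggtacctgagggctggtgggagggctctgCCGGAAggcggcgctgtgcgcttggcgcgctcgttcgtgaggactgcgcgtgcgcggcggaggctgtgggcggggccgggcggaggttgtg
STRAP: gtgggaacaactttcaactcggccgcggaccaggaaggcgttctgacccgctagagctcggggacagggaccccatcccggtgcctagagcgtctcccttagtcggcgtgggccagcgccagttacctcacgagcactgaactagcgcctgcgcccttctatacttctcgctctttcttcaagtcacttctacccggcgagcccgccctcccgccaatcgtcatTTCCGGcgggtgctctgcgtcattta
GEMIN8: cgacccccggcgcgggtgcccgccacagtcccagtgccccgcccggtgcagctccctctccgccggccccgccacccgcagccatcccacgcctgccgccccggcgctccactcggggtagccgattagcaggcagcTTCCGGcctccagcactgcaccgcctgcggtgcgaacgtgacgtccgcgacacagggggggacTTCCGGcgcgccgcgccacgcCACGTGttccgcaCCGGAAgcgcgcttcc
These stretches were rich in G and C, at 66.4% for GEMIN5, 74.4% for GEMIN4, 61.6% for STRAP and 76.4% for GEMIN8. The ETS core CCGGAA was present in the windows of GEMIN4, STRAP and GEMIN8, in none of those of GEMIN2, GEMIN5, GEMIN6, GEMIN7 and DDX20, and in 14.5% of all 35116 promoter windows of the same length. The DDX20 window, all 250 bases of it, lay within counted exons of that gene. The windows of GEMIN2, GEMIN6 and 1 GEMIN7 start held 100, 94 and 65 such bases. The E-box CACGTG was present in 3 of the 10 windows of the members, that of GEMIN8 and those of 2 GEMIN7 starts, and in 6.3% of all windows. Those 2 GEMIN7 windows, chr19:45078945-45079194 and chr19:45079010-45079259, overlap and hold the same single CACGTG, so this site was counted in both. The GEMIN5 window held neither motif, nor ATGGCG, the YY1 core found in 6.5% of all windows, nor TTCNNNGAA, the STAT motif found in 6.6%. A match of letters is a description of the sequence and was not tested for binding.

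The first question was how the transcripts of the complex responded to imatinib over time. GEMIN5 and GEMIN4 fell within 6 h, GEMIN6 and STRAP were lower at 18 h, and GEMIN8 was the only member with a positive difference at both of these times. No member was called at 1 h, where 0.0166% of all genes tested were called. There none of the 8 had an unadjusted p under 0.05 with edgeR and DESeq2 also called 0; log2 fold changes ran from -0.17 to 0.05, and their 95% intervals from -0.48 to 0.41.

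At 6 h, 2 of 8 members were called, both lower, against 9.94% of all genes called and 4.12% called lower. By adjusted p alone 4 members passed, against 16% of all genes. The treated and CTRL libraries did not overlap for 7 of 8 members, against 32.4% of all genes. At 18 h, 4 of 8 were called, all lower, against 30.5% of all genes called and 13.2% called lower. All 8 passed by adjusted p alone, against 43.8% of all genes, and all 8 had no overlap with CTRL, against 55.5%. The median log2 fold change of the members was -0.37 at 6 h and -0.58 at 18 h, while that of all genes tested was 0.04 at both times.

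**Figure D1:**
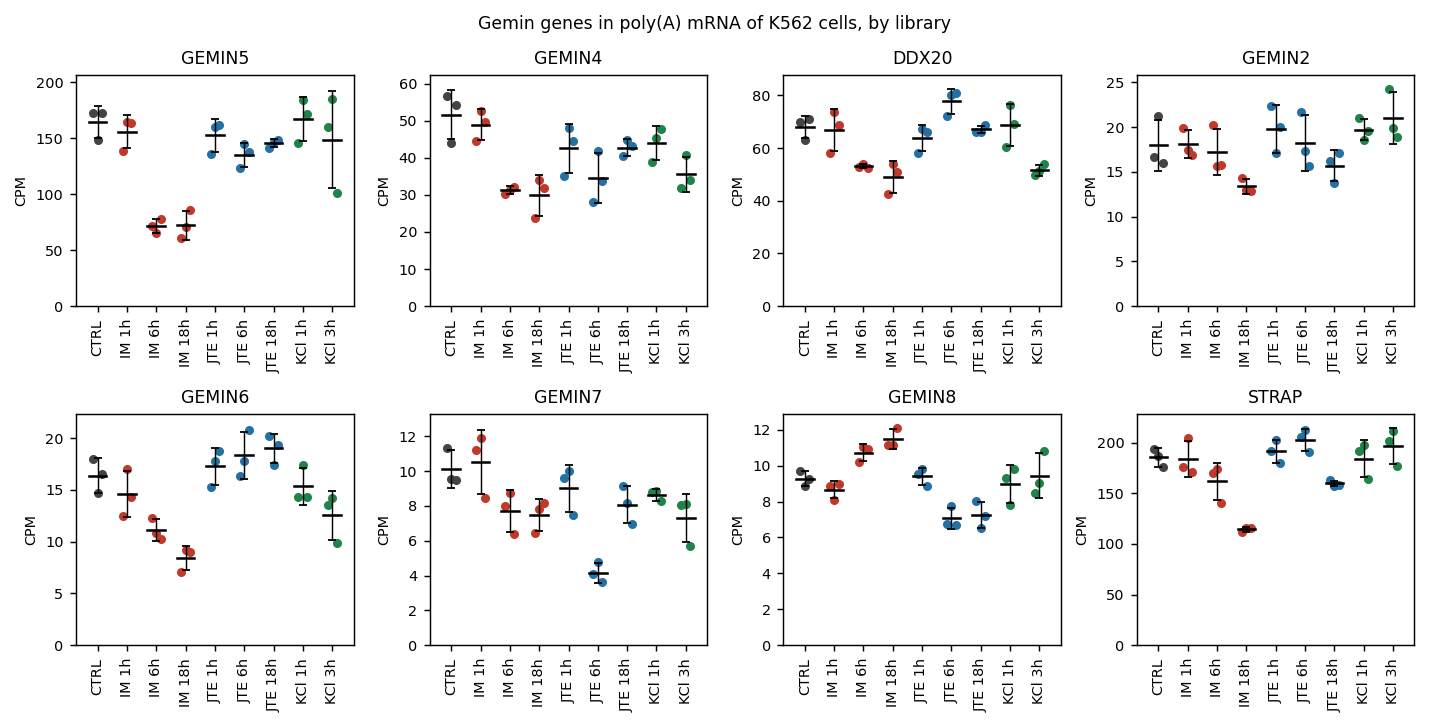
CPM (y axis, from 0) of each Gemin gene in poly(A) mRNA, for the 9 groups on the x axis; points are the 3 libraries of a group, bars the mean and whiskers the SD. GEMIN5 in IM 6h and IM 18h lies at 60.6 to 86.2 CPM, below every other library, and GEMIN7 is lowest in JTE 6h.

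GEMIN5, the subunit that recognises small nuclear RNA, had the largest decrease of the 8 in mRNA after imatinib. Its mRNA level was 172, 148 and 173 CPM in the CTRL libraries and 139, 164 and 164 CPM at IM 1h. It was 71.6, 65.5 and 78.1 CPM at IM 6h and 60.6, 70.2 and 86.2 CPM at IM 18h. The libraries of both later times lay far below CTRL, whereas those of the first hour overlapped it. The log2 fold change was -1.20 (SE 0.16, adjusted p = 2.16e-05, edgeR) at 6 h and -1.18 (SE 0.16, adjusted p = 2.9e-06, edgeR) at 18 h. Between 6 and 18 h it moved by 0.01, with a 95% interval from -0.31 to 0.34. In order of mean mRNA level the groups were KCl 1h, CTRL, IM 1h, JTE 1h, KCl 3h, JTE 18h, JTE 6h, IM 18h and IM 6h, and the only neighbours without overlapping libraries were JTE 6h at 135 ± 10.7 CPM and IM 18h at 72.3 ± 12.9 CPM.

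GEMIN4, the partner of the helicase, was also called lower at both later times. It was at 56.8, 44.2 and 54.2 CPM in CTRL mRNA, at 30.1, 31.4 and 32.2 CPM at IM 6h, and at 23.7, 34.2 and 31.8 CPM at IM 18h. No imatinib library of these times reached the lowest CTRL library. GEMIN4 differed from CTRL by a log2 fold change of -0.73 (SE 0.15, adjusted p = 0.00177, edgeR) at 6 h and -0.79 (SE 0.15, adjusted p = 0.000195, edgeR) at 18 h. Unlike GEMIN5, GEMIN4 had no gap in its order of groups: every group overlapped its neighbour, from CTRL at the top through IM 1h, KCl 1h, JTE 18h, JTE 1h, KCl 3h, JTE 6h and IM 6h to IM 18h.

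DDX20, the helicase itself, showed a smaller difference in the same direction. Its level was 70.0, 63.0 and 70.9 CPM in CTRL mRNA, 52.9, 54.1 and 52.5 CPM at IM 6h and 42.4, 53.8 and 51.0 CPM at IM 18h. Both later groups lay wholly below CTRL. Its log2 fold changes of -0.35 (adjusted p = 0.0219, edgeR) and -0.47 (adjusted p = 0.000867, edgeR) passed the p threshold but not the fold threshold, so DDX20 was not called.

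GEMIN2, which holds the Sm proteins, differed little at 6 h. CTRL mRNA libraries stood at 16.7, 21.2 and 16.0 CPM, IM 6h libraries at 20.2, 15.6 and 15.8 CPM and IM 18h libraries at 14.3, 13.0 and 12.9 CPM. IM 6h overlapped CTRL and IM 18h lay just below it. GEMIN2 had a log2 fold change of -0.06 at 6 h, with a 95% interval from -0.37 to 0.24, and of -0.43 at 18 h (adjusted p = 0.0244, edgeR), short of the fold threshold.

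The genes of the Sm-like dimer were expressed at low levels. GEMIN6 mRNA stood at 18.0, 14.7 and 16.5 CPM in CTRL, at 12.3, 10.8 and 10.2 CPM at IM 6h and at 7.06, 9.21 and 8.97 CPM at IM 18h. Its 3 groups formed descending steps without overlap. This gave a log2 fold change of -0.56 at 6 h (adjusted p = 0.015, edgeR), not called, and -0.96 at 18 h (SE 0.16, adjusted p = 3.3e-05, edgeR), called. The step from 6 to 18 h, -0.40 on the log2 scale, had an adjusted p of 0.112 with edgeR.

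GEMIN7 mRNA was at 11.4, 9.53 and 9.48 CPM in CTRL, at 8.02, 8.77 and 6.38 CPM at IM 6h and at 6.46, 7.84 and 8.14 CPM at IM 18h. The imatinib libraries lay below CTRL by a narrow margin. The log2 fold changes of -0.39 (adjusted p = 0.133, edgeR) and -0.44 (adjusted p = 0.0461, edgeR) were not called.

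GEMIN8, the link to the dimer, had the opposite sign. Its mRNA was at 9.70, 8.85 and 9.25 CPM in CTRL, at 10.2, 11 and 10.9 CPM at IM 6h and at 11.1, 11.2 and 12.1 CPM at IM 18h. Every imatinib library of these times exceeded every CTRL library. GEMIN8 differed by 0.21 at 6 h (adjusted p = 0.27, edgeR) and 0.31 at 18 h (adjusted p = 0.0476, edgeR), both within the fold threshold.

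STRAP, the WD-repeat protein Unrip, had the largest change of the 8 between the later times. It was at 194, 187 and 176 CPM in CTRL mRNA, 170, 174 and 141 CPM at IM 6h and 112, 116 and 116 CPM at IM 18h. The IM 18h libraries clustered tightly and lay below every other mRNA library. The log2 fold change was -0.20 at 6 h (adjusted p = 0.159, edgeR) and -0.70 at 18 h (SE 0.10, adjusted p = 3.72e-06, edgeR), the latter called. From 6 to 18 h STRAP changed by -0.50 (adjusted p = 0.0027, edgeR), which missed the fold threshold. In that comparison 0 of 8 members were called, by edgeR and by DESeq2, against 4.41% of all genes called. At an unadjusted p under 0.05 with edgeR there were 3 members and 4380 of all 18095 genes tested.

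The same question was put to nuclear RNA. At IM 1h no member was called by edgeR or DESeq2, with 0.0456% of all genes called. GEMIN2 alone of the 8 had an unadjusted p under 0.05, at a log2 fold change of 0.30 (edgeR adjusted p = 0.879). Of all 21929 genes tested, 844 had such a p. At IM 18h, 5 of 8 were called, all lower, against 32.6% of all genes called and 15.4% called lower. By adjusted p alone 7 passed, against 45.6% of all genes, and 7 had no overlap with CTRL, against 53.6%. The median of the members was -0.71 and that of all genes was 0.00 on the log2 scale.

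**Figure D2:**
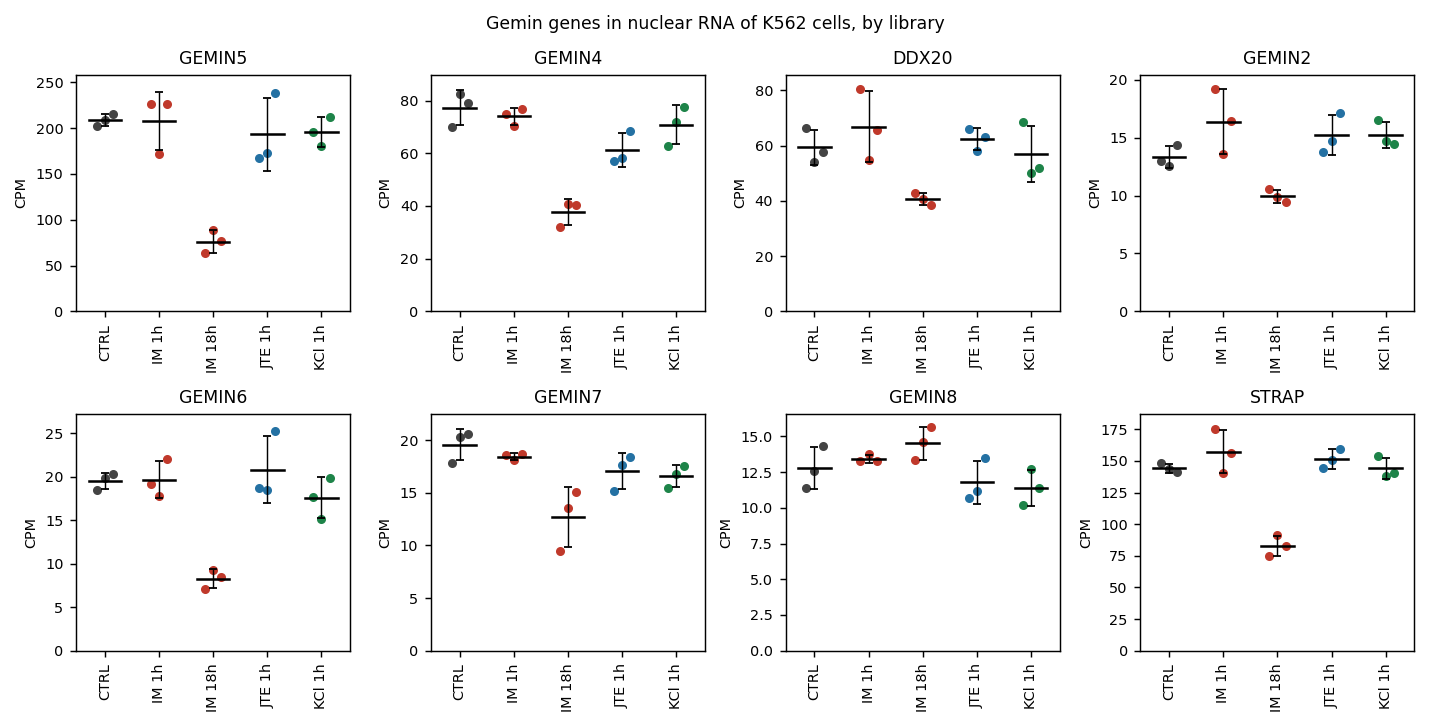
CPM (y axis, from 0) of each Gemin gene in nuclear RNA, for the 5 groups on the x axis; points are the 3 libraries of a group, bars the mean and whiskers the SD. IM 18h is the lowest group for 7 of 8 genes, GEMIN8 being the exception.

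Nuclear GEMIN5 stood at 202, 209 and 215 CPM in CTRL and at 63.5, 88.8 and 76.6 CPM at IM 18h, a log2 fold change of -1.45 (SE 0.14, adjusted p = 1.49e-07, edgeR). Nuclear GEMIN4 stood at 69.9, 82.6 and 79.2 CPM in CTRL and at 32.2, 40.9 and 40.5 CPM at IM 18h, a log2 fold change of -1.03 (SE 0.12, adjusted p = 5.92e-07, edgeR). Both groups were separated by a wide gap for both genes. GEMIN6 went from 18.5, 19.8 and 20.3 CPM to 7.06, 9.22 and 8.43 CPM, a log2 fold change of -1.25 (SE 0.15, adjusted p = 1.19e-06, edgeR). STRAP went from 148, 144 and 141 CPM to 75.1, 91.1 and 83.0 CPM, a log2 fold change of -0.80 (SE 0.10, adjusted p = 1.9e-06, edgeR). Their treated libraries were likewise all below CTRL.

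GEMIN7 was the fifth gene called in nuclear RNA, from 17.9, 20.3 and 20.6 CPM in CTRL to 9.47, 13.6 and 15 CPM at IM 18h. Replicate 1 of IM 18h was the lowest library, and no treated library overlapped CTRL. The log2 fold change of -0.63 (SE 0.14, adjusted p = 0.00106, edgeR) lay close to the fold threshold, and it was -0.45 without IM 18h replicate 1, -0.55 without CTRL replicate 2 and -0.54 without CTRL replicate 3, none of which is called. DDX20, from 66.3, 54.2 and 57.6 CPM to 42.9, 40.7 and 38.7 CPM, had a log2 fold change of -0.54 (adjusted p = 0.00285, edgeR). GEMIN2, from 13.0, 12.6 and 14.4 CPM to 10.5, 9.85 and 9.42 CPM, had one of -0.42 (adjusted p = 0.016, edgeR). Neither was called, although no treated library overlapped CTRL. GEMIN8, at 11.4, 12.6 and 14.3 CPM in CTRL and 13.3, 14.6 and 15.6 CPM at IM 18h, overlapped and differed by 0.18 (adjusted p = 0.265, edgeR).

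**Figure D3:**
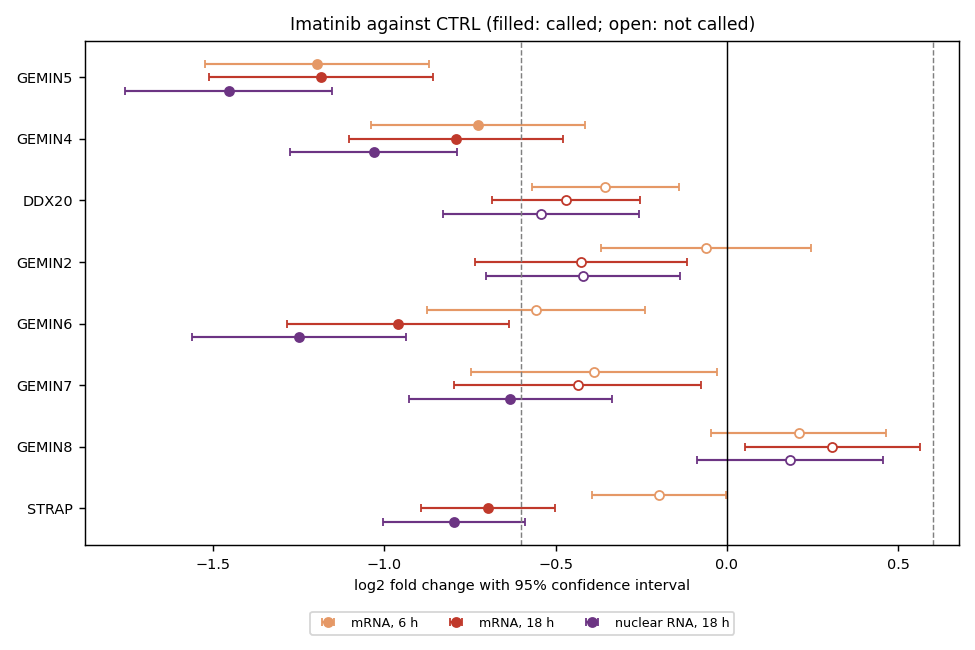
Log2 fold change of imatinib over CTRL (x axis) with its 95% confidence interval for each Gemin gene (y axis), in mRNA at 6 h and 18 h and in nuclear RNA at 18 h; filled points were called, open points were not, and dashed lines mark 0.6 in either direction. GEMIN5 has the lowest value in all 3 comparisons and GEMIN8 the only positive ones.

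An interaction term then compared the nuclear response with the mRNA response. At IM 18h the nuclear minus mRNA difference ran from -0.23 for GEMIN6 to 0.06 for GEMIN2, and the 95% intervals reached from -0.67 to 0.48. No member was called in this or the other 3 interactions, and DESeq2 also called 0 in each. None had an unadjusted p under 0.05 with edgeR in any of them. Of all genes tested, 0.0901% were called for IM 18h, 0% for IM 1h, 0.0605% for JTE 1h and 0.668% for KCl 1h. For IM 1h, the interaction gave 395 genes with an unadjusted p under 0.05.

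Erythroid markers moved in the same samples. KLF1, an erythroid transcription factor, went from 85.5 ± 9.83 CPM in CTRL mRNA to 185 ± 16.7 CPM at IM 18h. TAL1 went from 154 ± 12.5 to 422 ± 36.1 CPM, HBG1 from 546 ± 185 to 1337 ± 271 CPM and LMO2 from 82.1 ± 25.8 to 153 ± 16.9 CPM, while GATA1 stood at 166 ± 25.0 and 144 ± 11.1 CPM. Their part in the decrease of the Gemin genes was not tested. In these bulk samples, fewer cells of a kind and less RNA per cell cannot be told apart.

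The next question was how these genes stood after JTE-607. GEMIN7 fell at 6 h and was higher again at 18 h, and no other member was called against CTRL. At JTE 1h no member was called (0.851% of all genes called), none had an unadjusted p under 0.05 and DESeq2 called 0; log2 fold changes ran from -0.28 to 0.14. At JTE 6h, 1 of 8 was called, against 13.2% of all genes. At JTE 18h none was called by edgeR or DESeq2, against 5.39% of all genes called. GEMIN8 and STRAP had an unadjusted p under 0.05 there with edgeR, as did 4101 of all 18095 genes tested.

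GEMIN7 mRNA stood at 4.09, 4.78 and 3.64 CPM at JTE 6h, below every other mRNA library, and at 9.12, 8.15 and 6.96 CPM at JTE 18h. Its CTRL libraries, given above, lay higher than both groups. The log2 fold change at 6 h was -1.28 (SE 0.18, adjusted p = 1.57e-05, edgeR) and at 18 h -0.32 (adjusted p = 0.276, edgeR). The change from 6 to 18 h was 0.96 (SE 0.18, adjusted p = 0.000589, edgeR), and GEMIN7 was the only member called in that comparison, where 13.4% of all genes were called.

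MARK4, a same-strand neighbour that shares exonic bases with GEMIN7, stood at 29.5 CPM in CTRL mRNA and 18.7 CPM at JTE 6h, a log2 fold change of -0.65 (adjusted p = 0.00126, edgeR), and changed by 0.87 from 6 to 18 h. PPP1R37, the other same-strand neighbour, changed by 0.20 at 6 h (adjusted p = 0.462, edgeR). The part of the shared exons in the GEMIN7 value was not tested.

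GEMIN4 at JTE 6h was at 28.2, 41.8 and 33.8 CPM in mRNA, below CTRL in every library, with a log2 fold change of -0.58 (adjusted p = 0.0077, edgeR) that just missed the fold threshold. Leaving out CTRL replicate 2 gave -0.70 and leaving out JTE 6h replicate 2 gave -0.74, and GEMIN4 was then called. GEMIN8 was at 6.76, 7.74 and 6.71 CPM at JTE 6h and at 8.01, 6.55 and 7.22 CPM at JTE 18h, with log2 fold changes of -0.39 (adjusted p = 0.0315, edgeR) and -0.35 (adjusted p = 0.0829, edgeR). Both groups lay below CTRL but within the fold threshold. For the other members at JTE 6h, log2 fold changes ran from -0.28 for GEMIN5 to 0.19 for DDX20.

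In nuclear RNA at JTE 1h no member was called by edgeR or DESeq2, against 8.52% of all genes called. GEMIN4, at 56.9, 58.1 and 68.5 CPM, had the only unadjusted p under 0.05, with a log2 fold change of -0.34 (adjusted p = 0.0703, edgeR). Its libraries lay just below those of CTRL.

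The compounds were also compared with each other at matched times, at their own doses. Imatinib gave lower GEMIN5 and GEMIN6 and higher GEMIN8 than JTE-607 at both times, and higher GEMIN7 at 6 h. At 6 h 4 of 8 members were called, against 23.8% of all genes, and at 18 h 3 of 8, against 30.3%.

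GEMIN5 mRNA was at 123, 144 and 137 CPM at JTE 6h and 141, 147 and 148 CPM at JTE 18h, all far above the imatinib libraries. The log2 fold change of imatinib over JTE-607 was -0.91 (SE 0.16, adjusted p = 9.38e-05, edgeR) at 6 h and -1.01 (SE 0.16, adjusted p = 2.23e-05, edgeR) at 18 h. GEMIN6, at 16.4, 17.8 and 20.8 CPM at JTE 6h and 20.2, 17.4 and 19.4 CPM at JTE 18h, also lay wholly above imatinib. It differed by -0.72 (SE 0.15, adjusted p = 0.00081, edgeR) and -1.18 (SE 0.16, adjusted p = 2.81e-06, edgeR).

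For GEMIN8 the difference was 0.60 (SE 0.13, adjusted p = 0.000653, edgeR) at 6 h and 0.66 (SE 0.13, adjusted p = 0.000185, edgeR) at 18 h. Both values lie at the fold threshold: the call at 6 h was lost with DESeq2 at 0.59 and without IM 6h replicate 2 at 0.57, IM 6h replicate 3 at 0.59, JTE 6h replicate 1 at 0.57 or JTE 6h replicate 3 at 0.56, and that at 18 h without JTE 18h replicate 2 at 0.57. GEMIN7 was 0.89 higher with imatinib at 6 h (SE 0.18, adjusted p = 0.000513, edgeR). At 18 h it differed by -0.11, with a 95% interval from -0.47 to 0.25.

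DDX20 and STRAP were lower with imatinib than with JTE-607 at both times, within the fold threshold. DDX20 differed by -0.55 and -0.45 and STRAP by -0.33 and -0.48, with adjusted p of 0.00938 or less in edgeR's test. GEMIN4 differed by -0.15 at 6 h (95% interval from -0.46 to 0.16) and by -0.52 at 18 h (adjusted p = 0.00778, edgeR), and without IM 18h replicate 2 the latter was -0.64 and called. GEMIN2 differed by -0.08 and -0.23, with 95% intervals from -0.39 to 0.23 and from -0.54 to 0.08.

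**Figure D4:**
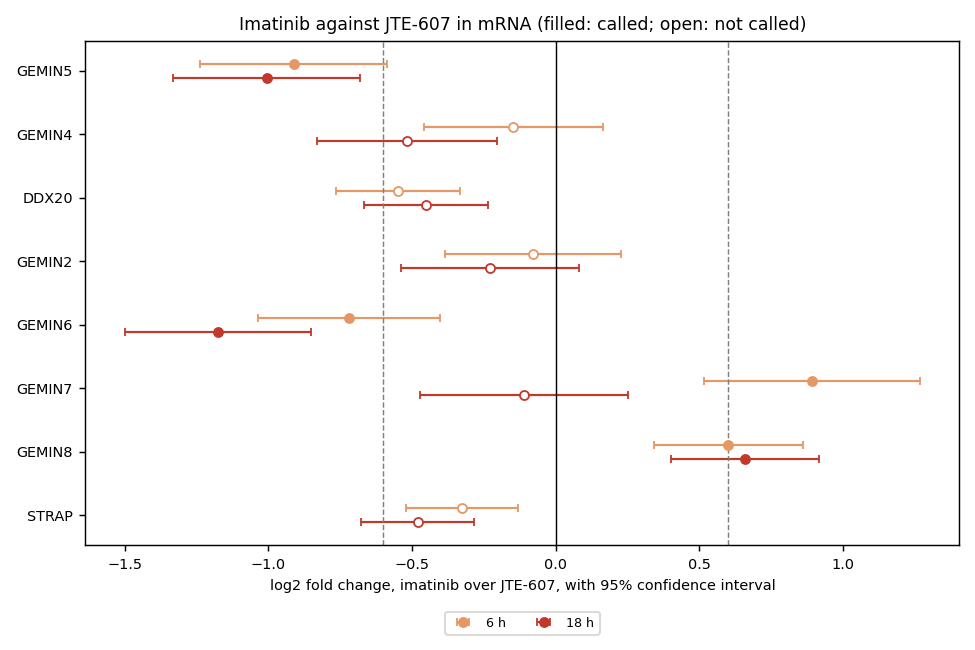
Log2 fold change of imatinib over JTE-607 in mRNA (x axis) with its 95% confidence interval for each Gemin gene (y axis) at 6 h and 18 h; filled points were called, open points were not, and dashed lines mark 0.6 in either direction. GEMIN7 is at 0.89 at 6 h and -0.11 at 18 h, whereas GEMIN5, GEMIN6 and GEMIN8 keep their side.

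For KCl, no member was called at either time. At KCl 1h, 5.45% of all genes were called, no member had an unadjusted p under 0.05 with edgeR and DESeq2 called 0; log2 fold changes ran from -0.23 to 0.13. No member was called there without replicate 2 or without replicate 3, the deeper libraries. At KCl 3h, 11.9% of all genes were called and DESeq2 called 0 members. At an unadjusted p under 0.05 with edgeR there were 4 of 8 members and 4816 of all 18095 genes tested.

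GEMIN4 at KCl 3h was at 31.8, 40.9 and 34.1 CPM, wholly below CTRL, with a log2 fold change of -0.54 (adjusted p = 0.0138, edgeR). It was called without CTRL replicate 2 or without KCl 3h replicate 2, at -0.65 in each case. DDX20 at KCl 3h was at 49.6, 51.4 and 53.7 CPM, also below CTRL, with a log2 fold change of -0.40 (adjusted p = 0.009, edgeR). GEMIN6 and GEMIN7 had log2 fold changes of -0.39 (adjusted p = 0.0954, edgeR) and -0.47 (adjusted p = 0.0698, edgeR).

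Relative to its mean, GEMIN5 varied most of the 8 within this group, at 160, 185 and 101 CPM, so its difference of -0.14 had a 95% interval from -0.47 to 0.18. Between KCl 3h and KCl 1h no member was called by edgeR or DESeq2 (3.29% of all genes called). GEMIN4 and DDX20 had an unadjusted p under 0.05 with edgeR, as did 2696 of all 18095 genes tested, and DDX20 changed by -0.41 (adjusted p = 0.0178, edgeR). In nuclear RNA at KCl 1h, where 23.8% of all genes were called, no member was called by either tool and none had an unadjusted p under 0.05. Nuclear log2 fold changes ran from -0.24 for GEMIN7 to 0.20 for GEMIN2.

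The partners of the SMN complex in snRNP assembly were read from a list of 23 genes, all of which were tested. Before Sm proteins reach the complex, the methylosome (PRMT5 and its cofactors) modifies their arginines. At IM 6h, 1 of 23 was called higher and 1 lower, against 5.82% and 4.12% of all genes, a share near the background. At IM 18h in mRNA, 1 was called higher and 8 lower, against 17.2% and 13.2% of all genes. In nuclear RNA 1 was called higher and 9 lower, against 17.2% and 15.4%. The median log2 fold change of the list was -0.54 in mRNA and -0.56 in nuclear RNA at IM 18h.

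Within the methylosome, 4 of 5 genes were called lower at IM 18h in both fractions, where 13.2% of all genes were called lower in mRNA and 15.4% in nuclear RNA. PRMT5, the arginine methyltransferase, stood at 151 ± 12.4 CPM in CTRL mRNA and 69.5 ± 10.2 CPM at IM 18h, a log2 fold change of -1.12 (adjusted p = 1.87e-06, edgeR). Its partner WDR77 changed by -1.11, its substrate adaptor RIOK1 by -0.99 and the PRMT5-binding COPRS by -1.26. RIOK1 was already called at 6 h, at -0.90. CLNS1A, the chaperone pICln that presents Sm proteins, changed by -0.40 and was not called.

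Of the 7 Sm protein genes, SNRPB, SNRPD1 and SNRPE were called lower in mRNA at IM 18h, at -0.65, -0.71 and -0.63. In nuclear RNA they were called again, together with SNRPG at -0.71. The others ran from -0.57 to -0.29 in mRNA. The U7 snRNP, which processes histone mRNA, has its own Sm-like proteins, and their genes moved in opposite directions. LSM10 went from 30.4 ± 2.11 to 14.0 ± 1.49 CPM in mRNA, a log2 fold change of -1.12, and LSM11 from 27 ± 4.16 to 53.0 ± 13.1 CPM, one of 0.97 (adjusted p = 3.79e-05, edgeR). LSM11 was called higher at IM 6h as well, at 0.63.

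None of the 7 export and import genes, nor TGS1, the cap hypermethylase, nor COIL, the Cajal body scaffold, was called against CTRL after imatinib. The export and import genes ran from -0.59 for KPNB1 to 0.07 for IPO8 in mRNA at IM 18h, TGS1 was at -0.54 and COIL at -0.03. No gene of the list was called in any comparison of JTE-607 or KCl with CTRL, in which the share of all genes called ran from 0.851% for JTE 1h in mRNA to 23.8% for KCl 1h in nuclear RNA. Between the compounds, RIOK1 alone was called at 6 h, lower with imatinib at -0.97, against 10.2% of all genes called lower. At 18 h, 9 were called lower and LSM11 higher, against 13.6% and 16.7% of all genes, the lowest being LSM10 at -1.03 and PRMT5 at -1.02. These 9 included 3 export and import genes, PHAX at -0.72, NCBP1 at -0.66 and KPNB1 at -0.61. Between 6 and 18 h of imatinib PRMT5, COPRS and LSM10 were called lower, at -0.68, -0.69 and -0.66, against 1.93% of all genes called lower.

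**Figure D5:**
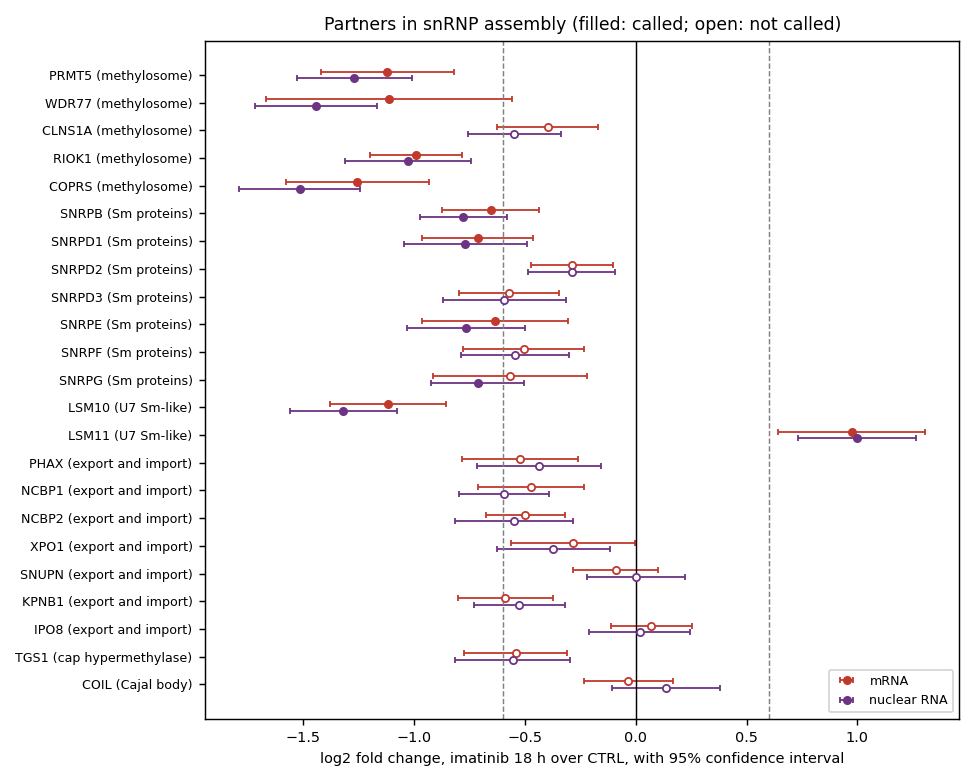
Log2 fold change of imatinib 18 h over CTRL (x axis) with its 95% confidence interval for the 23 partner genes (y axis, role in brackets), in mRNA and nuclear RNA; filled points were called, open points were not, and dashed lines mark 0.6 in either direction. The methylosome genes apart from CLNS1A lie at or below -0.99, and LSM11 lies at 0.97 and 1.00.

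Genes whose mRNA pattern was most like each member were taken by Pearson r over the 9 mRNA group means of log2(CPM + 0.5), among 8714 candidates with a mean of at least 10 CPM. These group means share the CTRL and treatment libraries, and the values are a description. GEMIN5 was closest to POLR1B (r = 0.994) and NOL8 (0.990), STRAP to PGK1 (0.996) and DDX39A (0.996), and DDX20 to TGS1 (0.989) and AZIN1 (0.983). GEMIN6 was closest to B4GALT1 (0.989) and BRI3BP (0.987), GEMIN8 to MED20 (0.992) and APEX1 (0.985), and GEMIN7 to ARFIP2 (0.977) and C6orf120 (0.972). GEMIN2 was closest to PPT1 (0.97) and RTRAF (0.97) and GEMIN4 to TIMM23B (0.971) and JUND (0.967). Over the 27 single libraries the r of these genes ran from 0.497 for PPT1 with GEMIN2 to 0.983 for PGK1 with STRAP. By that r, PPT1 ranked 1668 of the 8714 candidates, B4GALT1 1496, APEX1 387 and JUND 321 for their members. NOL8, C6orf120 and PGK1 ranked 1 for GEMIN5, GEMIN7 and STRAP.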

How the data were processed

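The authors deposited raw counts of read pairs per gene for 27 mRNA and 15 nuclear libraries of K562 cells. Reads were trimmed and deduplicated with fastp, aligned uniquely to hg38 with STAR (introns up to 10000 bases) and counted over exons with featureCounts without a strand option, so antisense reads were counted too; the annotation release is not given in the sources used here. Duplicate removal without molecular identifiers can lower counts of abundant transcripts.

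Tests used edgeR 4.0.16 under R 4.3.3 (TMM, filterByExpr, robust quasi-likelihood test, Benjamini-Hochberg adjustment over all genes), in 1 fit per fraction with a term for each group. The difference between nuclear and mRNA responses was an interaction. CPM uses TMM effective library sizes, and RPKM divides it by the deposited exon length. Members held at least 66 counts per library. The script was tested on simulated data. Over all genes, replicates differed by more than counting error (chi-square per gene from 2.38 to 65.5).

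Alternatives were DESeq2 1.42.0, RLE normalization, no low-count filter, no fold threshold, fits of the groups compared only, a replicate block and leaving out each library. The titles give the replicate numbers. Deviations of same-numbered nuclear libraries correlated at 0.235 to 0.891, so the numbers pair them, whereas the labelled mRNA numbers did not pair treated libraries with CTRL (from -0.368 to 0.877). The study's own list of library totals has mRNA CTRL 1 and 2 in the reverse order of the labels. With these numbers exchanged, an alternative added after seeing the data, the correlations ran from 0.0553 to 0.877, above 0.1 in every comparison with CTRL but JTE 18h. For numbers 1 and 2 of IM 1h with CTRL they were -0.237 and -0.266 as labelled, and 0.831 and 0.834 exchanged. For JTE 1h they were -0.223 and -0.244 as labelled, and 0.869 and 0.844 exchanged. The replicate numbers also paired mRNA JTE 18h with JTE 6h, KCl 3h with KCl 1h and IM 6h with JTE 6h. The genes named were the 8 members, the called genes without overlap from a list of 23 partners, and the 2 genes most like each member; export and import, Sm protein, TGS1, COIL and CLNS1A values outside that rule, and the overlapping neighbours, were added after their values were seen. Members and lists were chosen with earlier results of these data known. RefSeq promoter windows were found by symbol for all 8 members, that of DDX20 lying within its counted exons.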

Additional observations from a re-analysis of the deposited data

Results flagged for a closer look

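GEMIN7 differed between the time points of JTE-607 in mRNA. The test of the difference itself gave a log2 change of 0.96 from 6 to 18 h (SE 0.18, adjusted p = 0.000589, edgeR), higher in 3 of 3 libraries than any library of 6 h. Under 13 alternatives the value ran from 0.86 to 1.07, and GEMIN7 was called in all 13.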

How the results depend on the processing

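Of 293 counts of members called under an alternative, 279 stayed within 1.5 times the value reported. Of 2344 log2 fold changes of members, 2304 kept their side of the threshold, 29 gained a call and 11 lost one. No value called in the main fit or in the alternative changed sign. Changes of sign among values called in neither were not counted. Without the fold threshold the members called against CTRL were 4 at IM 6h, 8 at IM 18h, 3 at JTE 6h, 2 at KCl 3h and 7 at nuclear IM 18h. Between treated groups they were 1 for IM 18h against IM 6h, 2 for JTE 18h against JTE 6h and 1 for KCl 3h against KCl 1h. Imatinib against JTE-607 gave 6 at 6 h and 6 at 18 h. This is a broader rule by construction. It called 16% of all genes at IM 6h, 43.8% at IM 18h and 45.6% at nuclear IM 18h. For the other comparisons the share of all genes under this rule was not counted. At JTE 6h the count was 2 with no low-count filter and 2 with the replicate block, GEMIN4 being added at -0.63 and -0.60, and the cause was not tested. Leaving out 1 library gave from 1 to 2 members at JTE 6h (2 without CTRL replicate 2 or JTE 6h replicate 2) and from 0 to 1 at KCl 3h (1 without CTRL replicate 2 or KCl 3h replicate 2), GEMIN4 being added in each case. GEMIN6 at IM 6h was called without CTRL replicate 2 (-0.65) or IM 6h replicate 1 (-0.66). GEMIN8 lost its call for imatinib against JTE-607 with RLE normalization at 6 h (0.59) and with no low-count filter at 18 h (0.59). In the comparisons that the replicate numbers pair, the block changed no call of a member. With the replicate block and the numbers of mRNA CTRL 1 and 2 exchanged, chosen after seeing the data, every count of members called was as reported (1 at JTE 6h), and at 1 h 0 members were called for IM, JTE and KCl in mRNA. Under that block 2 members had an unadjusted p under 0.05 in the IM 1h interaction, 1 in that of JTE 1h, 2 in that of KCl 1h and 0 in that of IM 18h, and none was called. In nuclear RNA against CTRL the block gave 2 such members at IM 1h, 1 at JTE 1h and 1 at KCl 1h, and none was called. In mRNA against CTRL it gave 0 such members at IM 1h, and GEMIN4 alone at JTE 1h and at KCl 1h. At JTE 6h it gave 4, at JTE 18h 4 and at KCl 3h 5. The lowest adjusted p of a member at JTE 18h was then 0.0301 (edgeR), against 0.0829 in the main fit, and no member was called there. All genes called rose from 3 to 5 for IM 1h, 154 to 280 for JTE 1h, 975 to 1575 for JTE 18h and 798 to 1527 for IM 18h against IM 6h in mRNA, from 10 to 69 for nuclear IM 1h, and in the interactions from 0 to 10 for IM 1h, 18 to 50 for IM 18h, 12 to 418 for JTE 1h and 141 to 984 for KCl 1h. Which numbering is right was not tested. Counting error was largest for GEMIN7, at 66 counts in its lowest library.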
